A study of Mus musculus with 135 samples.

Results

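Rescued blastocysts of Obox maternal-zygotic knockout (mzKO) mouse embryos were compared with wild-type blastocysts across all genes. The rescued group held the 2 libraries titled Obox157OE and Obox3OE, and the wild-type group held the 2 WT_BL libraries, so 4 of the 135 samples of the series entered the comparison. Other groups served as reference: 2 libraries of mzKO embryos that the labels describe as arrested at the 2-cell stage, and 1 library of arrested mzKO embryos titled Obox4OE. Groups were taken from the sample labels and not from measured values.

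Wild-type embryos carried the wild-type genotype and no treatment. All 5 mzKO libraries were labelled with the Obox mzKO genotype, meant to lack the egg's store of these factors as well as the embryo's own. Several of them listed Obox RNA above 1 FPKM all the same, as given with the Obox genes. The titles name the overexpressed Obox genes, while the treatment label of every mzKO library reads none, so how the factors were given to these embryos is not stated in the sources used here. Each rescue is 1 library, and the pair was treated as 1 group with a different factor in each library. The labels do not tell separate collections apart or give the number of embryos per library, so each p reflects the variation among libraries, which may be technical.

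Obox genes encode homeodomain transcription factors made in the mouse oocyte and the early embryo, when the embryo switches from stored maternal RNA to its own transcripts. A blastocyst, the stage before implantation, has an outer epithelium called trophectoderm, which pumps fluid into the cavity and later gives the placenta. Its inner cells divide into epiblast, which gives the body, and primitive endoderm, which gives the yolk sac.

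Values are FPKM from Smart-seq2 libraries, which is abundance per kilobase as a share of the library, so fewer cells of a type and less RNA per cell cannot be told apart. Depth is unknown, and an exact 0 can stand for a failed estimate or for no reads. The 4 blastocyst libraries summed to 318568 to 423998 FPKM with 7572 to 8905 genes at 1 FPKM or more. The arrested mzKO libraries summed to 74531 and 37752 FPKM, and 55.4% and 71.5% of those sums was Rn45s, the 45S ribosomal RNA precursor, against 1.60% to 5.16% in the 4 blastocyst libraries. The Obox4OE library summed to 58762 FPKM with 9.78% Rn45s.

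Apart from Obox6, the Obox genes themselves were at or near 0 in both blastocyst groups. Obox1, Obox2, Obox3, Obox5, Obox7 and Obox8 were listed at 0 in all 4 libraries, so the blastocyst libraries cannot show whether overexpressed Obox1, Obox5, Obox7 or Obox3 had been present earlier. Obox6 was at 3.47 and 1.16 FPKM in wild type, 4.32 in the Obox157OE library and 1.60 in the Obox3OE library. The arrested library labelled mzKO replicate 1 listed Obox3 at 59.7 FPKM, which goes against its knockout label, and replicate 2 listed it at 0. In the Obox4OE library Obox4 was listed at 0, Obox6 at 5.68 and Obox8 at 3.53 FPKM. Obox6 was thus listed in both rescued libraries and in the Obox4OE library, all labelled mzKO. Whether the knockout covers Obox6 and Obox8 was not tested. The Obox copies are near-identical, so reads may be split between them.

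The wild-type libraries differed more from each other than each did from 1 rescued library. Over the 8754 genes at 1 FPKM or more in at least 2 of the 4 blastocyst libraries, called expressed here, 33.3% differed by at least 1 in log2(FPKM + 1) between the 2 wild-type libraries. Wild-type library 1 and the Obox157OE library differed by as much for 2.32% of genes, and wild-type library 2 and the Obox3OE library for 3.28%. Pearson's correlation across these genes, a description over genes that are not independent, was 0.92 between the wild-type libraries, 0.981 within the first of these pairs and 0.974 within the second. FPKM sums followed the same pattern, with 423998 and 421357 in the first pair and 328709 and 318568 in the second. The labels give no batch, day or sex that joins the libraries of a pair, so the pairs were recognised after seeing the data, and what joins them was not tested.

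Across all genes, rescued and wild-type blastocysts were close. Of 14105 genes tested, 2 rose and 3 fell in the rescued group, which is 0.0354% of those tested; 107 had an unadjusted p under 0.05. The test was limma on log2(FPKM + 1), fitted on all 13 replicated groups of the table, and a called gene had a Benjamini-Hochberg adjusted p under 0.05 and a log2 difference of at least 1 in size. All differences given here are in log2(FPKM + 1), a scale that makes the change of weakly expressed genes look smaller. Among the 8754 expressed genes the median size of the difference was 0.16. Of these genes, 10% lay below -0.38 and 10% above 0.29.

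The precision of 2 libraries against 2 was limited. The median 95% interval reached 1.18 to either side of its estimate, and the interval lay wholly within a 2-fold difference for 1051 of the 8754 expressed genes, or 12.0%. For the other expressed genes a difference of 2-fold or more lay inside the interval. An interval within 2-fold was found for 0 of 78 cytosolic ribosomal protein, 0 of 33 proteasome and 0 of 73 respiratory chain genes. It was found for 12 of 25 tested genes of imprinting and X inactivation, of which 17 were expressed, beside 3788 of all 14105 tested genes. The log2(FPKM + 1) scale makes changes of weakly expressed genes look smaller, so these counts do not measure likeness alone. With a pseudocount of 0.1, 0 tested genes had such an interval. The rescued libraries were both above or both below the wild-type libraries for 830 genes, or 9.48% of those expressed, of which 407 were higher (4.65%) and 423 lower (4.83%).

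The arrested embryos gave the contrast. Against wild-type blastocysts, 438 genes rose in the arrested mzKO libraries (3.11% of those tested) and 6138 fell (43.5%). Against the same arrested libraries, 6080 genes rose in rescued blastocysts (43.1%) and 442 fell (3.13%). These comparisons share libraries with one another. Rn45s and the low FPKM sums moved with them: with Rn45s left out and libraries scaled to one sum, the median of all genes moved by 0.95, and 13927 of the same genes were tested again. Of these, 3402 rose (24.4%) and 3029 fell (21.7%) in arrested against wild-type embryos, and 3016 rose (21.7%) and 3408 fell (24.5%) in rescued against arrested embryos. For arrested embryos, counts and differences from the scaled libraries, in which the median gene was at 0, are therefore given beside the unscaled ones.

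**Figure D1:**
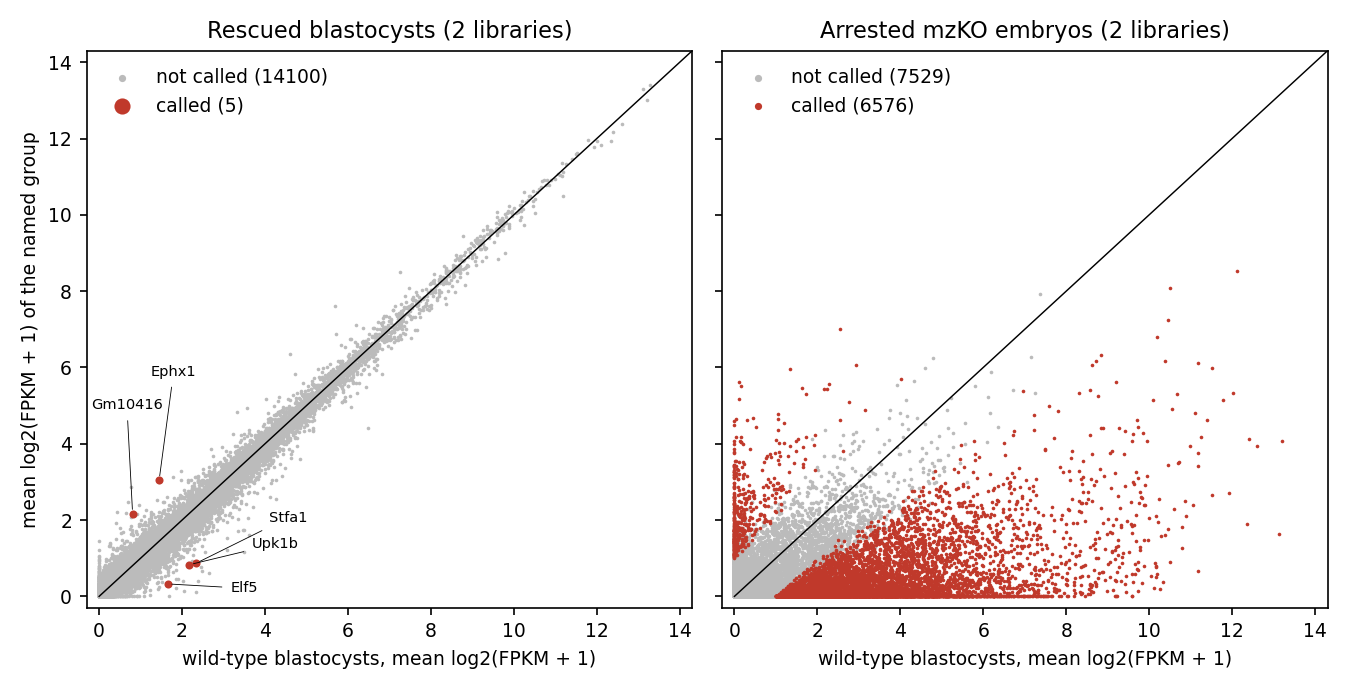
Mean log2(FPKM + 1) of each tested gene in wild-type blastocysts (x axis, 2 libraries) against rescued blastocysts (left) or arrested mzKO embryos (right), 2 libraries each. Red points are genes called by limma, grey points are not called, and the line marks equal values; 5 genes are red on the left and 6576 on the right.

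The 3 genes that fell were at low levels. Upk1b, a tetraspanin of epithelial membranes, was at 3.44 and 3.61 FPKM in wild type, 1.23 in the Obox157OE library and 0.418 in the Obox3OE library. It fell by 1.35 (adjusted p = 0.0166, limma). Elf5, a transcription factor that maintains trophoblast stem cells, was at 3.42 and 1.24 FPKM in wild type, 0.470 in the Obox157OE library and 0.0700 in the Obox3OE library. Its difference was -1.33 with a 95% interval of -1.81 to -0.84 (adjusted p = 0.0166, limma). Elf5 reached 1 FPKM in no fitted library other than the 2 wild-type blastocyst libraries. It thus entered the test only through the group where it is high, and its call is conditioned on that direction. Stfa1, a stefin that inhibits cysteine proteases, was at 5.52 and 2.92 FPKM in wild type against 0.414 and 1.36 in the rescued libraries, a difference of -1.47 (adjusted p = 0.0305, limma). Wild-type and rescued libraries did not overlap for any of the 3. Stfa1 has close copies, so its value is uncertain.

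The 2 genes that rose were Ephx1, a microsomal epoxide hydrolase, and Gm10416, annotated as a transcribed pseudogene. Ephx1 was at 2.11 and 1.40 FPKM in wild type, 6.31 in the Obox157OE library and 8.39 in the Obox3OE library. It rose by 1.60 ± 0.28 (standard error of the fit, 2 libraries a group; adjusted p = 0.0166, limma). Gm10416 was at 0.806 and 0.696 FPKM in wild type against 3.81 and 3.22 in the rescued libraries, a rise of 1.36 (adjusted p = 0.0166, limma). Gm10416 reached 1 FPKM in no fitted library other than the 2 rescued libraries, so its call is likewise conditioned on its direction.

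None of these 5 calls held under every alternative setting. Of the 16 alternatives tried, Ephx1 was tested in 16, Stfa1 and Upk1b in 15, Gm10416 in 13 and Elf5 in 12. Stfa1 was called in 6, Upk1b, Elf5 and Ephx1 in 5 each and Gm10416 in 4, with the direction kept wherever the gene was tested. With 1 of the 4 libraries left out, the difference ran from -1.84 to -1.10 for Stfa1, -1.67 to -1.02 for Upk1b and 1.42 to 1.79 for Ephx1. Elf5 was not tested without either wild-type library, and ran from -1.56 to -1.10 when a rescued library was left out. Gm10416 was not tested without either rescued library, and ran from 1.32 to 1.41 when a wild-type library was left out. With Rn45s left out and libraries scaled to one sum, 0 genes were called by limma and 55 had an unadjusted p under 0.05. When the spread came from the 4 compared libraries alone, 0 genes were called by limma.

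Blastocysts of other tables of the series, normalized separately and so not tested, gave a wider view of the same genes. They were a wild-type control blastocyst of the maternal knockout table, a maternal-knockout blastocyst and a water-injected wild-type blastocyst, 1 library each. Ephx1 was at 0.561, 2.17 and 21.2 FPKM there, a range that holds both rescued values. Gm10416 was at 3.48, 8.57 and 4.18 FPKM, near or above the rescued values and above both WT_BL values. Upk1b was at 2.21, 1.70 and 6.68, Elf5 at 11.05, 8.82 and 2.65, and Stfa1 at 3.53, 4.99 and 4.59 FPKM. For the 3 genes that fell, both rescued libraries lay below all 5 other blastocyst libraries.

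Larger shifts that did not pass the test are given as values. Ly6a, a surface antigen also known as Sca-1, was at 65.1 and 39.1 FPKM in wild type, 125 in the Obox157OE library and 297 in the Obox3OE library, a difference of 1.91 (unadjusted p = 0.00092, adjusted p = 1, limma). In the other blastocysts Ly6a was at 52.6 to 137 FPKM, so the Obox3OE value was the highest of the 7. S100a6, a calcium-binding protein, was at 13.0 and 6.13 FPKM against 22.9 and 33.1, and Lgals9, a galectin, at 8.88 and 7.97 against 26.2 and 12.4. Ankrd10 was at 2.62 and 1.04 FPKM against 8.85 and 5.42, and Ccm2, an adaptor of endothelial junction signalling, at 0.921 and 6.99 against 9.41 and 8.04. Across the other blastocysts S100a6 spanned 7.09 to 27.0 and Lgals9 3.60 to 26.8 FPKM. Ankrd10 spanned 8.98 to 22.7 and Ccm2 8.33 to 13.8 FPKM there. The Lgals9 range held all 4 compared libraries, while for Ankrd10 all 4 lay below the other blastocysts. Wild-type library 1 decided the value for Ccm2: without it the difference was 0.28, and without wild-type library 2 it was 2.34.

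On the lower side, Arhgap8, a GTPase-activating protein, was at 13.3 and 7.76 FPKM in wild type and 3.29 and 1.61 in the rescued libraries, a difference of -1.74 (95% interval -2.82 to -0.66, adjusted p = 1, limma). Both rescued values and both wild-type values lay below the 24.5 to 26.9 FPKM of the other blastocysts. Xiap, an inhibitor of caspases, was at 7.97 and 2.45 FPKM against 2.17 and 0.947, and its difference lay between -1.85 and -0.47 when 1 library was left out. Lincenc1, a long non-coding RNA of naive pluripotent cells, was at 17.3 and 11.9 against 10.8 and 3.31, and Guca1a, known as a guanylate cyclase activator of photoreceptors, at 15.4 and 17.7 against 9.43 and 4.82. For all 4 genes the rescued libraries lay below both wild-type libraries, which the rule that named them required. The rescued libraries also lay below the 3 other blastocysts for each gene, as did wild-type library 2 for Xiap and Lincenc1.

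Trophectoderm genes were expressed in both rescued libraries. Krt8 and Krt18, the keratins of this epithelium, were among the most abundant: Krt8 was at 1640 and 1013 FPKM in wild type and 1705 and 1041 in the Obox157OE and Obox3OE libraries. Krt18 was at 2275 and 1511 against 2332 and 1307 FPKM. Arrested mzKO libraries listed Krt8 at 0 and 0.669 FPKM. Gata3, a trophectoderm transcription factor, was at 122 and 55.0 FPKM in wild type and 101 and 53.9 in rescued blastocysts. Tfap2c was at 16.0 and 10.3 against 14.4 and 10.8, and the tight-junction gene Cldn4 at 63.9 and 43.2 against 46.8 and 73.1 FPKM.

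The factors that set the lineage up were at lower levels than the keratins. Cdx2, the homeodomain factor that specifies trophectoderm, was at 4.51 and 12.8 FPKM in wild type and 3.12 and 6.21 in rescued blastocysts, and at 0 in both arrested libraries and in the Obox4OE library. Its difference was -0.68 (95% interval -1.30 to -0.05, adjusted p = 1, limma), and the groups overlapped. It ran from -1.34 without wild-type library 1 to -0.02 without wild-type library 2. Eomes, a T-box factor of trophoblast, was at 25.4 and 6.83 against 15.6 and 5.77 FPKM. Tead4, which reads Hippo signalling to switch the lineage on, was at 11.6 and 11.2 against 13.3 and 12.0 FPKM.

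**Figure D2:**
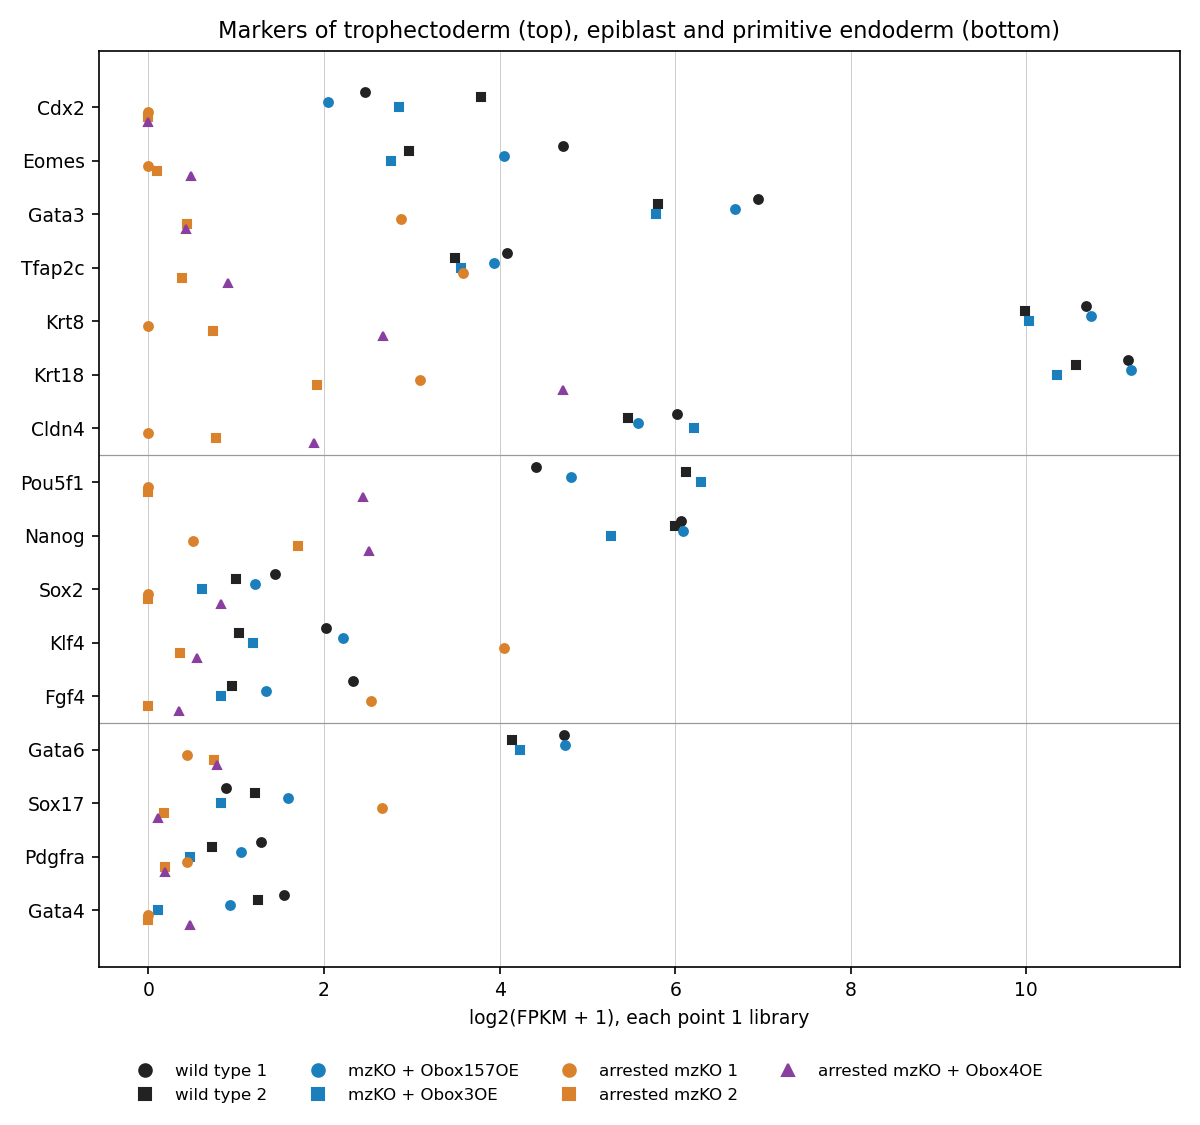
Level of 16 lineage markers in each of the 7 libraries, as log2(FPKM + 1); black marks wild-type blastocysts, blue rescued blastocysts, orange arrested mzKO embryos and purple the Obox4OE library, with circles and squares for the libraries of a group. Blue points lie near the black ones, and Cdx2, Krt8 and Pou5f1 lie at or near 0 in the arrested mzKO libraries.

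Within the list of 19 trophectoderm transcription factors, 0 rose and 1 fell in rescued blastocysts (Elf5), by limma. The median difference of its 15 expressed members was -0.42, beside -0.03 over all expressed genes. The rescued libraries lay below both wild-type libraries for 5 of the 15 and above both for 1, beside 4.83% and 4.65% of all expressed genes. Elf5 is 1 of the 5 and is among the 15 only through the wild-type libraries, where it is high. For Elf5 the call and this count are thus conditioned on direction. Over all 19 tested members the median was -0.36. Gata2, a trophoblast GATA factor, was at 12.9 and 5.91 FPKM in wild type and 5.52 and 2.97 in rescued blastocysts. Msx2, a homeodomain factor, was at 3.44 and 2.83 against 1.65 and 1.40, and Elf3, an epithelial factor, at 211 and 182 against 178 and 141 FPKM. Klf5, which is needed for trophectoderm and inner cells alike, was at 137 and 93.9 against 125 and 92.0 FPKM, where the groups overlapped.

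The median of the epithelium's structural and transport genes lay nearer to that of all genes. Of 48 tested members, 0 were called in rescued blastocysts by limma, and the median over 44 expressed members was -0.11. By pair it was -0.29 with Obox157OE and 0.05 with Obox3OE. Epcam, an adhesion molecule, was at 521 and 138 FPKM in wild type and 582 and 206 in rescued blastocysts. Aqp3, a water channel, was at 42.2 and 15.8 against 46.3 and 27.4 FPKM. Fabp3, a fatty-acid carrier, was at 7610 and 3580 against 5570 and 2795 FPKM. In the arrested mzKO libraries, 40 of the 48 members fell unscaled; scaled, 22 fell and 8 rose, and the median was -1.20.

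Epiblast genes were present as well. Pou5f1, the factor known as Oct4, was at 20.3 and 68.5 FPKM in wild type and 27.1 and 77.2 in rescued blastocysts, and listed at 0 in both arrested mzKO libraries. Nanog was at 66.2 and 62.8 against 67.2 and 37.5 FPKM, Sox2 at 1.73 and 1.00 against 1.33 and 0.526, and Klf4 at 3.07 and 1.05 against 3.64 and 1.29. Fgf4, the signal by which epiblast cells instruct primitive endoderm, was at 4.04 and 0.940 against 1.53 and 0.776. Of 31 tested members of the epiblast and pluripotency list 0 were called by limma, and the median over 27 expressed members was -0.19. Dppa3, a maternal-effect protein also called Stella, was at 2119 and 2517 FPKM in wild type and 1717 and 1192 in rescued blastocysts, and Fbxo15 was at 459 and 322 against 298 and 208; the groups did not overlap for these genes, and neither was called.

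Primitive endoderm markers overlapped between the groups for Gata6 and Sox17 and did not for Gata4. Gata6, which opens the lineage, was at 25.7 and 16.7 FPKM in wild type and 25.9 and 17.7 in rescued blastocysts. Gata4, which follows it, was at 1.90 and 1.37 in wild type, 0.901 in the Obox157OE library and 0.0802 in the Obox3OE library, a difference of -0.87 that was not called (adjusted p = 1, limma). It was -0.47 without the Obox3OE library, -1.28 without the Obox157OE library and -2.02 with a pseudocount of 0.1. Sox17 was at 0.848 and 1.32 against 2.01 and 0.777, and Pdgfra, the receptor that supports these cells, at 1.43 and 0.652 against 1.08 and 0.389 FPKM. Cited1, a transcriptional co-regulator, was at 1.63 and 0.328 against 4.55 and 2.56, above both wild-type libraries and above the 1.07 to 1.63 FPKM of the other blastocysts. Over 21 expressed members the list's median was 0.05, opposite in sign to its medians by pair, -0.07 with Obox157OE and -0.23 with Obox3OE, and 0 of its 25 tested members were called. Of the 16 lineage markers drawn by library, 13 had a difference that changed sign when 1 library was left out, and Cdx2, Sox2 and Gata4 kept theirs.

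Of 29 tested genes of Hippo, Fgf and Wnt signalling, 0 were called in rescued blastocysts by limma. Over 23 expressed members the median was -0.30; the rescued libraries lay below both wild-type libraries for 5 of them and above both for 1, beside 4.83% and 4.65% of all expressed genes. Lats2, a Hippo kinase, was at 3.40 and 2.53 FPKM in wild type and 1.74 and 0.583 in rescued blastocysts. Amotl2, an angiomotin that restrains Yap, was at 7.43 and 7.43 against 5.43 and 3.56. Yap1 itself was at 5.64 and 2.76 against 4.94 and 1.48, and the Fgf receptor gene Fgfr2 at 14.6 and 3.81 against 8.05 and 3.09 FPKM, where the groups overlapped.

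Taking each rescued library against the wild-type library most like it gave 2 differences that share no library. Across the expressed genes their correlation was 0.105. A difference of at least 1 occurred for 203 genes with Obox157OE and for 287 with Obox3OE. The same direction was shared by 39 genes, 15 higher and 24 lower, which is 19.2% of the first set and 13.6% of the second, and 17 genes went in opposite directions. With a term for the pairs in the fit, limma called 6 genes, the 5 above and BC051665, a predicted gene at 860 and 8.18 FPKM in wild type and 114 and 3.02 in the Obox157OE and Obox3OE libraries. BC051665 spanned 152 to 1762 FPKM in the other blastocysts.

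**Figure D3:**
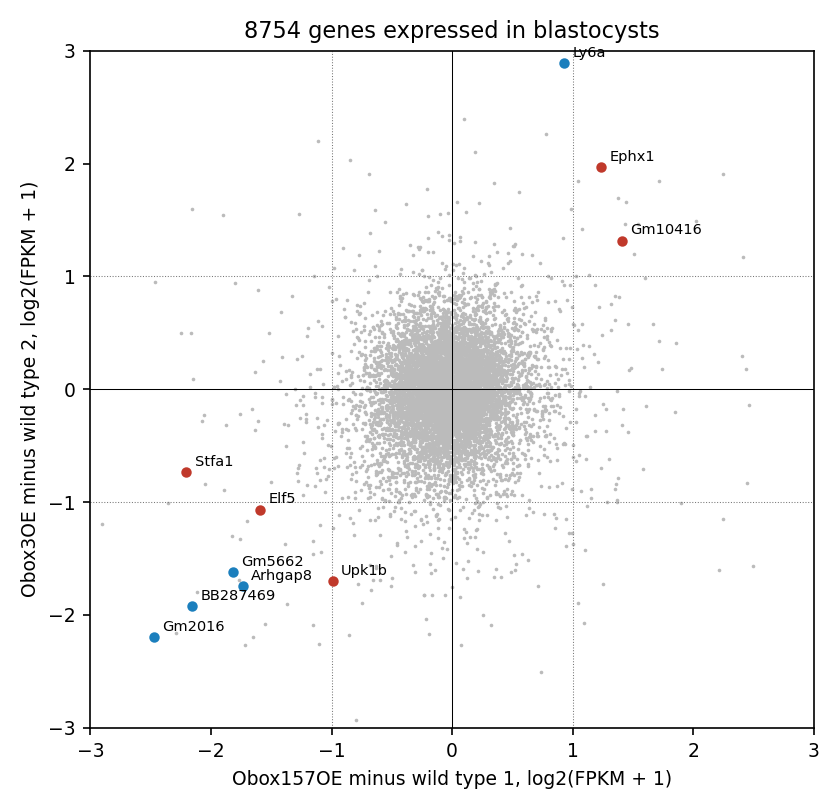
Difference of each of 8754 expressed genes between the Obox157OE library and wild-type library 1 (x axis) and between the Obox3OE library and wild-type library 2 (y axis), in log2(FPKM + 1). Red points are the 5 called genes, blue points are 5 other genes named in the text, and dotted lines mark a difference of 1; 203 genes lie beyond 1 on the x axis and 287 on the y axis.

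Of the 24 genes lower by at least 1 in both pairs, 4 are given as examples, chosen after their values were seen. Gsta1 and Gstk1 encode glutathione S-transferases. Gsta1 was at 28.4 and 3.91 FPKM in wild type and 7.69 and 0.956 in the Obox157OE and Obox3OE libraries, and Gstk1 at 28.7 and 4.78 against 10.4 and 1.23. Slc39a2, a zinc importer, was at 18.5 and 2.69 against 4.50 and 0.496. Nupr1, a stress-induced nuclear protein, was at 24.0 and 4.96 against 6.61 and 0.236 FPKM. None of the 4 was called (adjusted p = 1 for each, limma). Between blastocysts these genes vary widely, with Gsta1 at 18.9 to 303 FPKM and Nupr1 at 14.0 to 141 in the other blastocysts, all above both rescued values. For all 4 genes wild-type library 2 lay below the other blastocysts as well, so that comparison does not set the rescued libraries apart.

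The integrated stress response list, which holds Nupr1, had 0 of 28 tested members called and a median of -0.15 over 24 expressed members, of which 10 were lower in both pairs, 6 higher in both and 8 neither. Examples from both directions were chosen after their values were seen. Calr and Hsp90b1 encode chaperones of the endoplasmic reticulum. Calr was at 121 and 67.6 FPKM in wild type and 146 and 94.4 in rescued blastocysts, and Hsp90b1 at 73.4 and 15.2 against 78.8 and 22.8. Asns, asparagine synthetase, was at 56.2 and 13.4 FPKM in wild type and 32.2 and 3.35 in rescued blastocysts. Herpud1, which acts in the disposal of misfolded proteins, was at 25.4 and 3.04 against 10.2 and 1.10. Atf4, the factor that drives this response, was at 87.6 and 59.2 against 77.1 and 28.8 FPKM. For Asns, Herpud1 and Atf4 the Obox3OE library was the lowest of the 4, and the groups overlapped for all 5 genes.

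**Figure D4:**
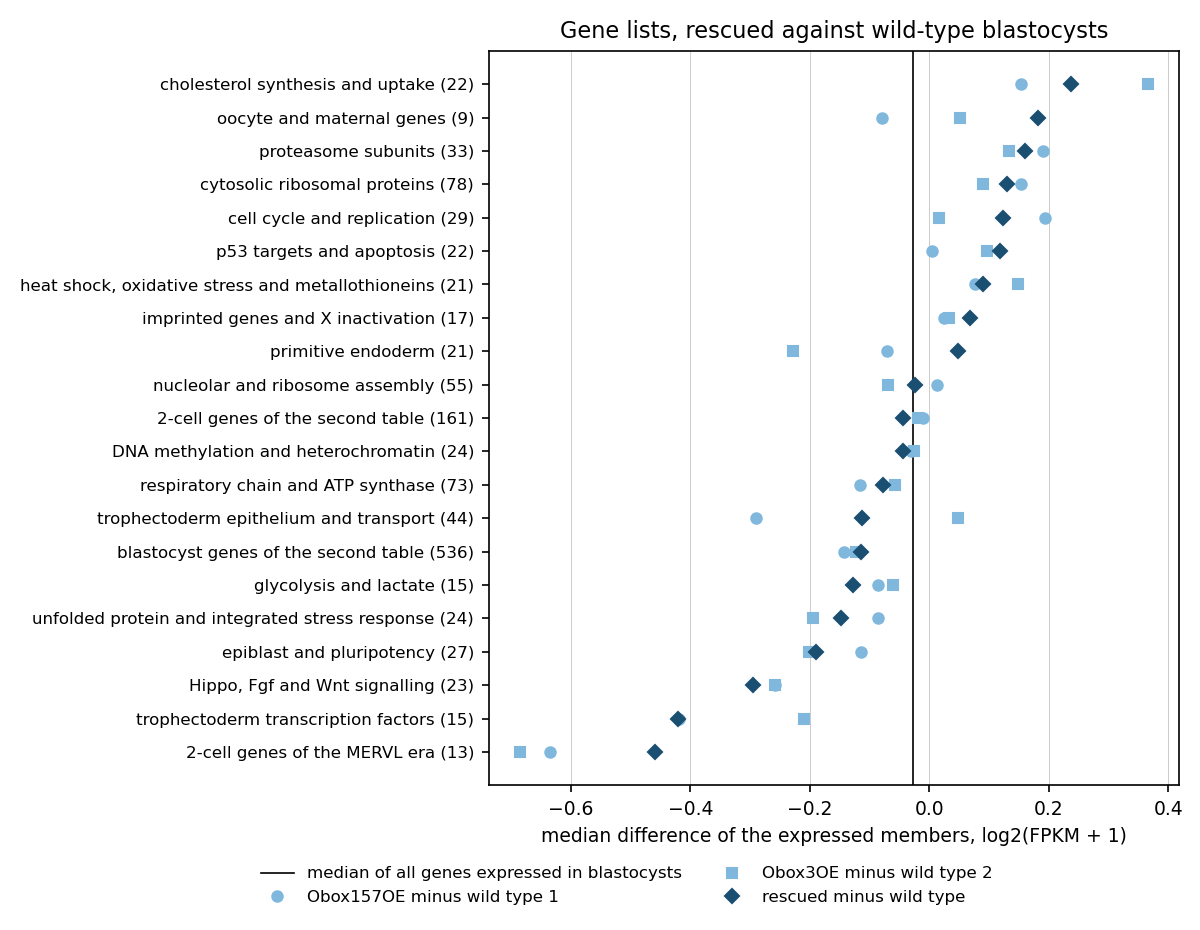
Median difference of the expressed members of 21 gene lists (number of expressed members in brackets) in log2(FPKM + 1), rescued minus wild type (dark diamonds) and for each of the pairs (light circles and squares). The line marks the median of all expressed genes, -0.03; the list of 2-cell genes lies lowest at -0.46 and cholesterol synthesis highest at 0.24.

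Among 78 cytosolic ribosomal protein genes 0 were called and the median difference was 0.13, with every member between -0.17 and 0.37. Rpl8 was at 699 and 608 FPKM in wild type and 997 and 709 in rescued blastocysts. Proteasome subunits had a median of 0.16 over 33 genes and a range of -0.08 to 0.35, and 24 of the 33 were higher in both pairs and 0 lower in both. Of all expressed genes, 1934 were higher in both pairs and 2586 lower in both. Respiratory chain and ATP synthase genes had a median of -0.08 over 73 genes, and nucleolar and ribosome assembly genes -0.02 over 55. None of these lists had a called member in rescued against wild-type blastocysts.

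In arrested mzKO embryos, the 4 lists differed in how much of their shift scaling removed. All 78 ribosomal protein genes fell unscaled with a median of -7.52, and 72 fell after scaling with a median of -3.85. All 33 proteasome genes fell, 24 after scaling, and all 73 respiratory chain genes, 68 after scaling. Of 55 nucleolar and ribosome assembly genes 43 fell unscaled with a median of -2.31; scaled, 16 fell and 15 rose, and the median was -0.21. Mt1, a metallothionein and one of the most abundant blastocyst transcripts, was at 8654 and 9206 FPKM in wild type, 9116 and 11039 in rescued blastocysts, and 0 and 8.54 in arrested embryos, where its scaled difference from wild type was -8.78. Gabarapl2 and Calcoco2, which act in autophagy, and the ribosomal gene Rps27rt also fell in arrested embryos, with scaled differences of -8.07, -7.03 and -7.99. Calcoco2 was at 1071 and 1227 FPKM in wild type, 1178 and 1140 in rescued blastocysts and 0.112 and 0.823 in arrested embryos.

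Smaller lists added detail. Cholesterol synthesis and uptake genes had a median of 0.24 over 22 genes with 0 called; Dhcr7, which makes cholesterol in the last step of the pathway, was at 8.67 and 4.01 FPKM in wild type and 13.5 and 6.95 in rescued blastocysts, overlapping groups. Cell cycle genes had a median of 0.12 over 29 expressed members, and Rrm2, a subunit of ribonucleotide reductase, was at 137 and 132 against 225 and 145. Medians were 0.12 for p53 targets and apoptosis, 0.09 for heat shock, oxidative stress and metallothioneins, -0.13 for glycolysis and lactate, and -0.04 for DNA methylation and heterochromatin, with 0 called members in each. Sod1, superoxide dismutase, was at 418 and 55.0 FPKM in wild type against 446 and 294, so that wild-type library 2 stood apart.

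Imprinted genes and X inactivation had 0 of 25 tested members called and a median of 0.07 over 17 expressed members. Phlda2, an imprinted gene that restrains placental growth, was listed at 0 in both wild-type libraries and at 1.77 and 0.406 FPKM in rescued blastocysts; the other blastocysts spanned 1.05 to 4.42 FPKM. Mest was at 1.81 and 0.607 against 2.58 and 2.92. Xist, which silences an X chromosome in females, was at 19.9 and 11.3 FPKM in wild type and 18.4 and 6.48 in rescued blastocysts. The Y-linked gene Eif2s3y was at 12.8 and 24.3 against 15.9 and 16.4 FPKM, so Xist and Y-linked RNA were both present in each of the 4 libraries.

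Genes that mark the 2-cell stage were at or near wild-type blastocyst levels, or below them, in rescued blastocysts. Zscan4d, a gene of the 2-cell burst, was listed at 0 in all 4 blastocyst libraries. Of 38 tested members of the 2-cell list, many of them driven by the retrovirus MERVL, 0 were called against wild type by limma. The median was -0.04 over all 38 and -0.46 over the 13 expressed members. The rescued libraries lay below both wild-type libraries for 5 of the 13 and above both for 0, beside 4.83% and 4.65% of all expressed genes. The predicted genes BB287469 and Gm4027 are among the 13 only through the wild-type libraries, where they are high. The median of -0.46 and this count are therefore in part conditioned on direction. The summed level of the 40 genes was 202 and 153 FPKM in wild type and 145 and 78.2 in rescued blastocysts.

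The lower values in that list came largely from 7 predicted genes that RefSeq's annotation of GRCm38.p6 places on chromosome 12, and that were singled out after their values were seen. Gm2016 was at 8.98 and 11.8 FPKM in wild type and 0.796 and 1.79 in the Obox157OE and Obox3OE libraries, a difference of -2.33 (unadjusted p = 0.0068, adjusted p = 1, limma). Gm5662 was at 15.1 and 21.8 against 3.56 and 6.42, BB287469 at 5.06 and 5.53 against 0.358 and 0.726, and Gm4027 at 3.55 and 5.80 against 0.549 and 0.607 FPKM. Reads may be split between near-identical copies, so the sum of the 7 is given as well. It was 34.7 and 57.6 FPKM in wild type and 5.96 and 10.4 in rescued blastocysts, with no overlap. The other blastocysts stood at 25.0, 12.1 and 9.98 FPKM, so the water-injected wild-type blastocyst was as low as the Obox3OE library.

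The same 7 genes were higher at earlier stages of the same table. Their sum was 85.9 to 295 FPKM in wild-type late 2-cell embryos and 495 to 872 FPKM in mzKO late 2-cell embryos. At the 4-cell label it was 21.3 to 127 FPKM in wild type and 1057 to 3041 FPKM in mzKO embryos, 3 libraries each. It was 102 and 9.96 FPKM in the arrested mzKO libraries and 4611 FPKM in the Obox4OE library. Rescued blastocysts, at 5.96 and 10.4 FPKM, lay below every one of these apart from the arrested mzKO library at 9.96, which lay between them. These levels are unscaled. Without Rn45s that arrested library summed to 10777 FPKM, against 414338 and 302139 FPKM in the Obox157OE and Obox3OE libraries. The place of the arrested library between the rescued ones therefore holds for unscaled values only.

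**Figure D5:**
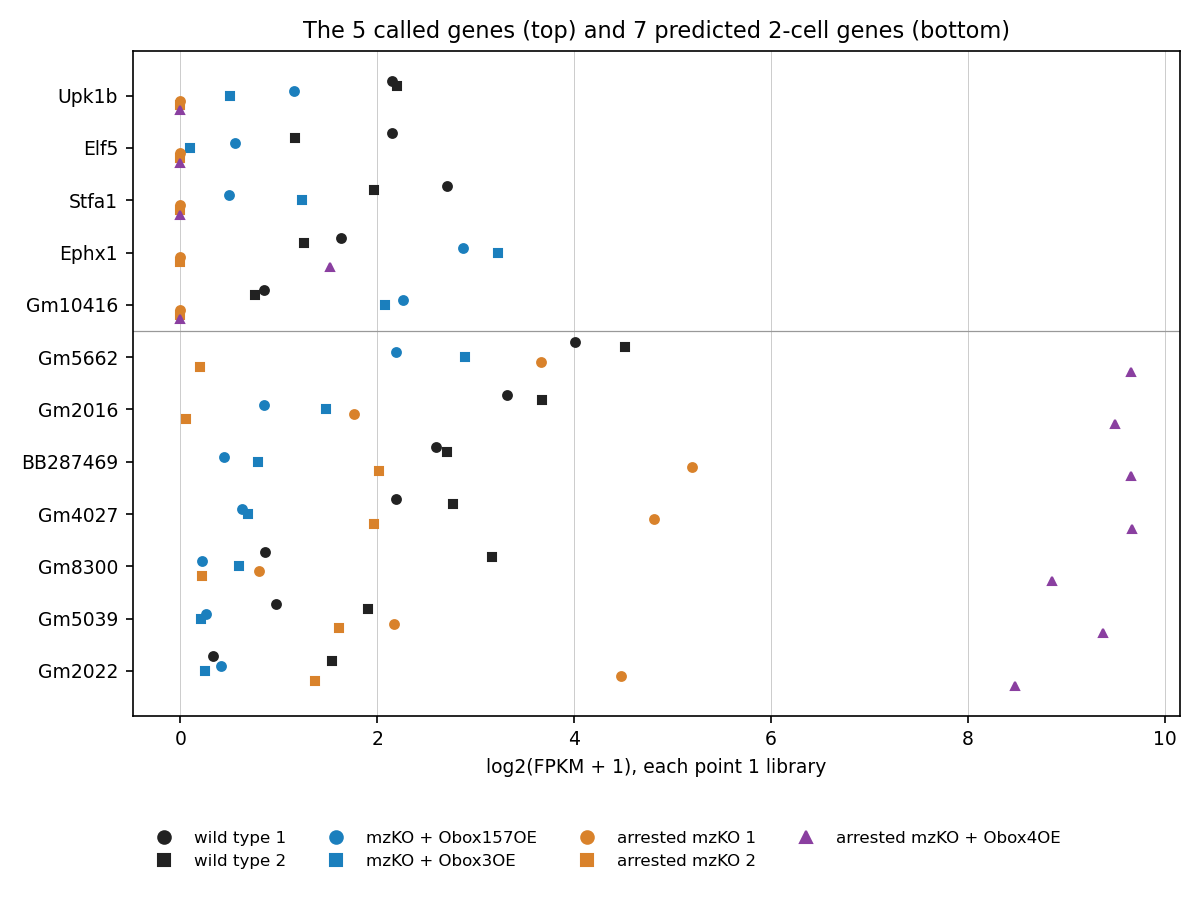
Level in each library, as log2(FPKM + 1), of the 5 genes called between rescued and wild-type blastocysts and of 7 predicted 2-cell genes. Colours and shapes are as in the plot of lineage markers; the blue rescued points lie below the black wild-type points for Upk1b, Elf5, Stfa1 and 6 of the 7 predicted genes, and the purple Obox4OE points lie at the far right for all 7.

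Most maternal genes were below 1 FPKM in rescued and in wild-type blastocysts. Of 63 oocyte and maternal genes, 10 and 6 were at 1 FPKM or more in the wild-type libraries, 9 and 7 in the rescued libraries, and 46 and 37 in the arrested mzKO libraries. None was called between rescued and wild-type blastocysts by limma. The list summed to 2632 and 2906 FPKM in wild type, 2353 and 1600 in rescued blastocysts and 844 and 201 in arrested embryos, so the rescued sums lay below both wild-type sums. Most of the blastocyst sums was Dppa3, given above with the epiblast list. Gdf9, an oocyte growth factor, was at 0.244 and 0.230 FPKM in wild type, listed at 0 in both rescued libraries, and at 69.7 and 7.69 in arrested embryos. Npm2, a chaperone of oocyte chromatin, was at 0.266 and 0 FPKM in wild type, 0.271 and 0 in rescued blastocysts, and 58.2 and 34.2 in arrested embryos. Nlrp14, a maternal-effect gene, was at or under 0.0461 FPKM in all 4 blastocyst libraries and at 62.4 and 9.09 in arrested embryos. In arrested embryos 35 of the 63 rose and 4 fell, and after scaling 51 rose and 2 fell. The scaled differences of Gdf9, Npm2 and Nlrp14 were 8.06, 9.12 and 8.30.

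Other genes that rose in arrested embryos were also at blastocyst levels after rescue. Hspa1a, an inducible heat shock protein, was at 0.104 and 0.0467 FPKM in wild type, 0 and 0.106 in rescued blastocysts and 102 and 11.6 in arrested embryos. Gadd45b, a stress-response gene, was at 1.78 and 1.30, then 1.04 and 0.149, then 109 and 34.0 FPKM in the same groups. Esx1, an X-linked homeodomain gene of the placenta, was at 102 and 22.7 FPKM in arrested embryos and at or near 0 in all 4 blastocyst libraries. Crabp1, which binds retinoic acid, was listed at 0 in the 4 blastocyst libraries and at 56.0 and 9.15 in arrested embryos. The scaled differences of Hspa1a, Gadd45b, Esx1 and Crabp1 between arrested and wild-type embryos were 8.77, 8.63, 9.26 and 8.25, so all 4 rose on either scale.

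A gene list drawn from another table did not use these libraries. It held 547 genes at least 3 log2 units higher in the wild-type control blastocyst of the maternal knockout table than in either of its late 2-cell libraries, at 10 FPKM or more. In rescued against wild-type blastocysts, 0 of 540 tested members rose and 1 fell by limma (Elf5, whose call is conditioned on direction as given above). The median over 536 expressed members was -0.11, beside -0.03 over all expressed genes, and -0.08 beside -0.00156 after scaling. By pair the medians were -0.14 with Obox157OE and -0.12 with Obox3OE, and 232 members were lower in both pairs and 75 higher in both. The summed level was 123270 and 102130 FPKM in wild type and 114420 and 93100 in rescued blastocysts. In arrested mzKO embryos, 522 of the 540 fell and 2 rose; after scaling 404 fell and 20 rose.

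The mirror list of 462 genes higher in the late 2-cell libraries of that table had 0 members called in rescued blastocysts. Its summed level was 1154 and 718 FPKM in wild type and 1156 and 636 in rescued blastocysts. In the arrested mzKO libraries 91 of its members rose and 39 fell, and after scaling 240 rose and 12 fell.

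The Obox4OE library, 1 library with no replicate check, stood apart from both. Of 540 tested blastocyst genes from the other table, 526 were lower than the wild-type mean by at least 1, beside 46.9% of all tested and 75.3% of all expressed genes. Of 63 maternal genes 3 were at 1 FPKM or more, and the list summed to 296 FPKM. Of the 38 tested members of the 2-cell list, 30 were higher than the wild-type mean by at least 1, beside 2.06% of all tested genes, with Zscan4c at 30.1 and Zscan4d at 62.9 FPKM. Across all 14105 tested genes it correlated at 0.75 with the mean of wild-type 4-cell embryos and at 0.741 with wild-type blastocysts, whereas the Obox157OE and Obox3OE libraries correlated at 0.984 and 0.977 with wild-type blastocysts and at 0.757 and 0.747 with 4-cell embryos. These correlations describe genes within libraries and carry no test.

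Markers of other cells were near 0. The 18 cumulus and granulosa genes summed to 1.13 to 2.51 FPKM in the 4 blastocyst libraries, and the 15 fibroblast genes to 1.45 to 5.18 FPKM. The fibroblast genes reached 103 FPKM in the library labelled arrested mzKO replicate 1, where Vim was at 62.7 and Col1a1 at 31.7 FPKM, while Col1a2 and Dcn were at 0. Sperm and spermatid genes summed to 6.39 to 13.7 FPKM in the blastocyst libraries, mostly from Odf2, with Tnp1 at 0. Early mesoderm and ectoderm genes, which mark stages after the blastocyst, summed to 2.39 to 4.62 FPKM.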

How the data were processed

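Gene levels were deposited by the authors as FPKM in workbook tables, of which 3 of 7 were used: the mzKO table for all tests, and the maternal knockout table and the injection table for values and stage lists. Genome build mm9 and the tools StringTie 2.1.2, HISAT2 2.2.1 and Trim Galore 0.6.6 are listed per the submitters' processing notes; how FPKM was computed is not given in the sources used here. Removal of 27 names converted to calendar dates left 24116 genes. Between libraries, a single ratio of low values was shared by at most 1.08% to 1.66% of genes, so whole reads could not be recovered and depth stayed unknown.

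Values were analysed as log2(FPKM + 1). Genes at 1 FPKM or more in at least 2 fitted libraries (14105) were fitted with limma 3.58.1 on the 30 libraries of the 13 replicated groups, with 17 residual degrees of freedom and a trended, robust variance. Benjamini-Hochberg adjustment ran over all 14105 genes, and a call needed an adjusted p under 0.05 and a log2 difference of at least 1. The Obox4OE library has no replicate and was given as values. The steps were tested on simulated data with independent noise in each library. That noise lacks the likeness of library pairs seen here, so the simulation does not bear on the calls.

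The comparison, its members and the 25 gene lists were chosen with earlier results of these data known. The 2 stage lists came from the maternal knockout table at a log2 difference of at least 3 and 10 FPKM or more. Named genes were the Obox genes, 16 fixed lineage markers, called members of the lists, and genes with non-overlapping groups, at least 5 FPKM in the higher group and a log2 difference of at least 1, called or with the smallest unadjusted p, without predicted or clone names. The 5 called genes, apart from those this rule names, and list members given as examples were named after their values were seen. Replicate numbers of the rescued group follow sample order and were not used to pair. The alternatives were other pseudocounts, filters, scalings, sets of fitted groups and variance settings, a replicate block where numbers allow it, a term for like libraries added after seeing the data, and each library left out.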

Additional observations from a re-analysis of the deposited data

Results flagged for a closer look

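The single Obox4OE library, which entered no test, held signal above both wild-type blastocyst libraries for 3 groups of genes, and a difference of 1 library has no replicate check. The summed level of the named Obox genes was 9.21 FPKM there against 3.88 and 1.21 FPKM in wild-type blastocysts. The summed level of the 2-cell list was 6189 FPKM against 202 and 153 FPKM. The summed level of the 2-cell genes drawn from the maternal knockout table was 2323 FPKM against 1154 and 718 FPKM. The Obox4OE library also had a lower FPKM sum, 58762 against 328709 and 423998 FPKM, and its part in these values was not tested.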

How the results depend on the processing

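The count of 5 genes called in rescued against wild-type blastocysts depended on the settings. By limma it was 0 with a pseudocount of 0.1 (142 genes at an unadjusted p under 0.05), 0 with at least 5 FPKM in 2 libraries (32), 0 with Rn45s left out and one sum (55), 0 when fitted on the 3 blastocyst-time groups (40) or on the 4 libraries alone (43), and 0 without trend and robust variances (78). It was 1 with a pseudocount of 5 and 1 after centring on the median. Leaving out 1 library gave 1 to 10. It was 5 without a filter or without the arrested libraries, and 6 with the pair term or a filter on the 4 compared libraries; these last 3 settings were chosen after seeing the data. A lone library left in a group is assumed to vary like the other groups.

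A pseudocount of 5 lowered the calls of arrested against wild-type embryos from 6576 to 3742 and of rescued against arrested embryos from 6522 to 3637. The number of tested genes with an interval within 2-fold, 3788, was 0 with a pseudocount of 0.1, 10711 with 5, 11646 without a filter, 461 with at least 5 FPKM, 1044 with the filter on the 4 libraries, 370 on the 3 groups, 44 on the 4 libraries alone, and 1709 to 1745 with 1 library left out. The cause was not tested for any of these.

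With the replicate number as a block, 6748 genes were called in arrested against wild-type embryos, 458 higher and 6290 lower. Library 1 minus library 2 of wild type correlated across 8754 genes at 0.082 with that of the arrested group and at 0.719 with that of the rescued group, where the numbers follow sample order. No label says that a number marks a shared day or litter, so the rescued group was given no replicate block; the pair term, which joins like libraries and was chosen after seeing the data, is its paired fit.

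Of 466 values of 30 named genes under alternatives, 391 were counted as the same. Called genes had kept the call there, and uncalled genes had stayed uncalled within 1 standard error of the fit. A further 46 lost the call, 1 gained it (Ly6a), 28 moved by more than 1 standard error without a call and 0 reversed. Sign changed for 13 genes, in 23 values. Settings that changed only the filter, fitted groups, variances or pair term could not move the difference itself. The 391 therefore overstate how stable the differences were. Depth is unknown, so genes near 0 carry no limit of detection.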
